A study of Mus musculus with 18 samples.

Results

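Open chromatin at the starts of long noncoding RNA (lncRNA) genes was described in LMs, the liver macrophages that the labels also call Kupffer cells. A region of the deposited list counted as a member if its midpoint was within 1 kb of an annotated transcript start of a lncRNA gene and over 1 kb from every start of a protein-coding gene. Of the 69499 regions in the list, 68533 were on chromosomes 1 to 19, where the rule was applied, and 772 of these were members (1.13%). Another 1076 regions were near starts of both kinds, so members were 41.8% of the 1848 regions at lncRNA starts. The 772 members belonged to 583 of the 3669 annotated lncRNA genes.

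Fast-ATAC-Seq had been performed on 50000 LMs per reaction from male C57BL/6J mice fed a high-fat and high-sucrose diet (HFHSD) for 4 weeks, in 18 libraries. There were 3 libraries of each genotype at zeitgeber times ZT10 and ZT22. The genotypes were control, *Reverb*-hDKO, which lacks REV-ERBα and REV-ERBβ in hepatocytes, and *Reverb/Scap*-hTKO, which also lacks SCAP there. All mice carried floxed alleles, and adult mice received an adeno-associated virus in which the hepatocyte promoter TBG drove CRE, or GFP in the controls, so the deletions were made in hepatocytes and not in the LMs themselves. The list joins peaks called on reads merged over replicates and gives only positions, so depth is not known, replicates have no spread to report, and neither genotypes nor times of day could be compared. Whether a given region was open in all libraries, or in which cells of the isolate, is not recorded.

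The starts of coding marker genes bear on which cells the list describes. An open region lay within 1 kb of a start for 8 of 11 Kupffer cell and macrophage genes, and also for 11 of 12 hepatocyte genes and 10 of 12 liver endothelial genes. The counts were 4 of 12 for hepatic stellate cells, 4 of 12 for lymphocytes, and 3 of 12 for neurons and muscle, against 57.7% of all 21418 coding genes. *Marco*, *Csf1r*, and *Lyz2* were the macrophage genes without an open start. Starts typical of hepatocytes and endothelial cells were thus in the list beside those of macrophages, and what part other cells had in the results below was not tested.

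lncRNAs are transcribed by RNA polymerase II from promoters like those of coding genes and are often capped and spliced, but they are not translated into long proteins. Some carry small nucleolar RNAs (snoRNAs, guides for the modification of ribosomal and spliceosomal RNA) or microRNAs (miRNAs, which repress messenger RNAs that match their seed) in their introns or exons, and others act in the nucleus on chromatin or on neighboring genes. Many are made in a few cell types only, and in macrophages several respond to inflammatory or sterol signals.

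The sequences of 10 members are shown because their genes are the best-known housekeeping, immune, hepatocyte, and imprinted lncRNAs of the lists below, because they host miRNAs of immune cells (*Mir155* and *A430104N18Rik*), or because many motifs met in 1 region. Each is the whole open region in the NCBIM37 (mm9) assembly, read on the strand of the lncRNA, with the matches to the 15 motifs described below in capitals.
*Malat1* (chr19:5802611-5802844, minus strand, sterol element): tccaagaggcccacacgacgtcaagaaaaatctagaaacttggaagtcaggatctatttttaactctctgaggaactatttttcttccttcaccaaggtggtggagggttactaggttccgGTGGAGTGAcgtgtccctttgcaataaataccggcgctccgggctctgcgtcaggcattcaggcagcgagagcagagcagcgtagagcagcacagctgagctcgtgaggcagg
*Mir17hg* (chr14:115441481-115441681, plus strand, CTCF): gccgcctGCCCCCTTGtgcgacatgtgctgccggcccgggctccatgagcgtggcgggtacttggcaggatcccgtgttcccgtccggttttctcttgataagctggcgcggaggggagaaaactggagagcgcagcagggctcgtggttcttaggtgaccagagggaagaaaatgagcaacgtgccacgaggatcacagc
*Mir155* (chr16:84713571-84713721, plus strand, AP-1): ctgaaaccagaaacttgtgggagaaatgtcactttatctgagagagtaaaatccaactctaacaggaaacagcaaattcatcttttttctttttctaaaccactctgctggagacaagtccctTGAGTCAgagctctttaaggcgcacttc
*A430104N18Rik*, the host of *Mir142* (chr11:87568956-87569172, plus strand, E-box): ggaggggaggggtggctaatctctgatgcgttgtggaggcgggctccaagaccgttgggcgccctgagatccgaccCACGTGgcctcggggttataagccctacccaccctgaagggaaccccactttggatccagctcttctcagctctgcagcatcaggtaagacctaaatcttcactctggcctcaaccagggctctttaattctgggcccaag
*Mirt1* (chr19:53534975-53535125, plus strand, PU.1): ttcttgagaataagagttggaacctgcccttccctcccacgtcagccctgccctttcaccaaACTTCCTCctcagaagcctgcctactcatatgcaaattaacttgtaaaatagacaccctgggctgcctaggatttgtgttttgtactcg
*Gm14005* (chr2:128255098-128255248, minus strand, ETS): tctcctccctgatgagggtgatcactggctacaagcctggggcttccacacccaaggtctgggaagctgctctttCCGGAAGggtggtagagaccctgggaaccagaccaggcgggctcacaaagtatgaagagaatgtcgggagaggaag
*4930412L05Rik* (chr4:53230525-53230803, minus strand, GC boxes): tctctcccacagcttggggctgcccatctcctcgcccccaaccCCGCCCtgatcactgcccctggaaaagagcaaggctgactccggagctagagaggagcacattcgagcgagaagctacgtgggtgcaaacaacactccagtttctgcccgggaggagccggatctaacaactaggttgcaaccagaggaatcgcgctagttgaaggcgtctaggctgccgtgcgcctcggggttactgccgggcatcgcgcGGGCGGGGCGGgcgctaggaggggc
*Hnf4aos* (chr2:163366486-163366693, minus strand, CTCF and CCAAT): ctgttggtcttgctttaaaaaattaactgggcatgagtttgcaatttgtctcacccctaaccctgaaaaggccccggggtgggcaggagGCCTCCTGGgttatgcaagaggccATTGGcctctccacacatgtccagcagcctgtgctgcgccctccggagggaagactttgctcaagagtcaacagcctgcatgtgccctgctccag
*D730003I15Rik* (chr1:193048282-193048452, plus strand, GC boxes, AP-1, ETS, and E-box): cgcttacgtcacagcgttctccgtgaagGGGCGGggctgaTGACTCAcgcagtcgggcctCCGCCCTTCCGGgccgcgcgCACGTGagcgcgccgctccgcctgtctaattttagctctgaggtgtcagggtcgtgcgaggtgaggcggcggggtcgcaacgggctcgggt
*Airn* (chr17:12933278-12933428, plus strand, CTCF): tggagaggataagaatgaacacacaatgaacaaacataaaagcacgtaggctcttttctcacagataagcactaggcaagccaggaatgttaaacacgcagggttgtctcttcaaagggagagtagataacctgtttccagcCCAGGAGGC

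The *Malat1* region held the annotated start at base 174, the region of the *Mir142* host at base 124, that of *Mirt1* at base 147, that of *4930412L05Rik* at base 75, and that of *D730003I15Rik* at base 72, counted from the 5′ end as printed. The other 5 regions did not cover the start. In *D730003I15Rik*, a lncRNA 41148 bp from *Atf3* (a stress-induced transcription factor), 5 matches lay within 171 bases, and the second GC box and the ETS match overlapped.

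Around the 5′ ends of lncRNA genes, open regions were densest just upstream, as they were at coding genes, but the peak was lower. Counted in bins of 100 bp, the highest bin was the last 100 bp before the 5′ end in all 3 sets of genes. It held 81.2 region midpoints per 1000 lncRNA genes, which was 15 times the density 4 to 5 kb away. For the 1734 lncRNA genes whose 5′ end was over 10 kb from every coding start it held 47.3 per 1000, or 12.3 times the flanks, so the peak was present away from coding promoters too. Coding genes had 196 per 1000, or 43.2 times the flanks.

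**Figure D1:**
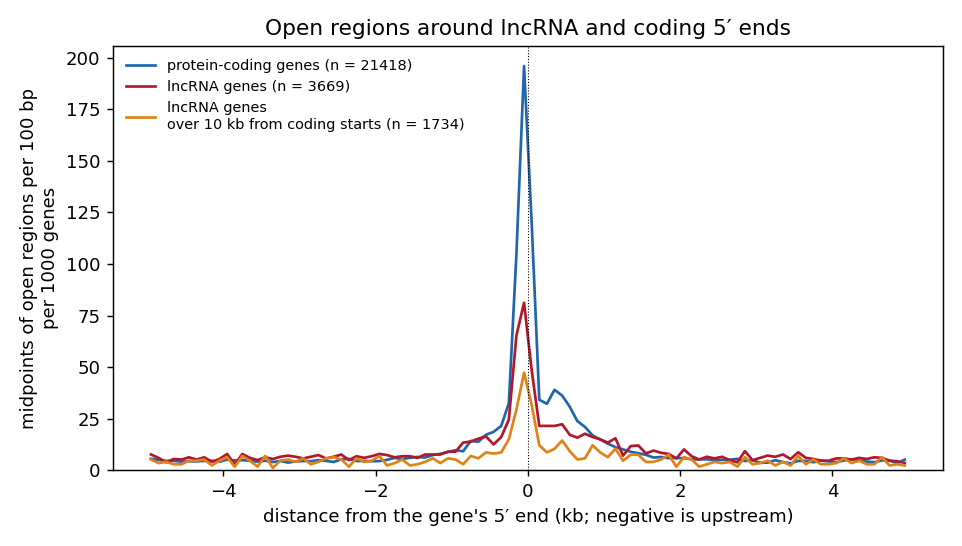
Midpoints of open regions in bins of 100 bp (vertical axis, per 1000 genes) by distance from the gene's 5′ end (horizontal axis, kb), for coding genes (blue), all lncRNA genes (red), and lncRNA genes over 10 kb from coding starts (orange). All 3 lines peak in the last 100 bp upstream, at 196, 81.2, and 47.3.

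Members lay less close to their starts than regions at coding starts did to theirs. The median distance from a member's midpoint to the nearest lncRNA start was 238 bp (quartiles 75.1 and 576 bp), against 114 bp (41 and 364 bp) for the 18132 regions at coding starts only. The region covered the start base in 226 members (29.3%, 95% Wilson interval 26.2 to 32.6) and in 46.4% of regions at coding starts, and 357 members (46.2%) were within 200 bp of the start, against 63.0%. The side was alike, with 57.4% of members (53.9 to 60.8) and 59.2% of regions at coding starts upstream. By the type of the nearest transcript, 363 members were at lincRNA starts, 203 at antisense starts, 165 at starts of processed transcripts, and 41 at starts of other types. Intervals here and below cover counting error only, and neighboring regions are not independent.

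Of the 3669 lncRNA genes, 583 (15.9%) had a member, and 1260 (34.3%) had any open region within 1 kb of a start once regions shared with coding starts were counted. The share with a member was 22.0% for the 773 genes that began 5 to 20 kb from a coding start and 22.1% for the 895 that began 20 to 100 kb away, but 9.64% (7.11 to 13) for the 394 that began over 100 kb away. It rose with the number of annotated transcripts, from 13.3% (12.1 to 14.6) with 1 through 21.4% (18.1 to 25.1) with 2 to 27.7% (23.4 to 32.5) with 3 or more. Among genes over 5 kb from every coding start these shares were 15.9%, 29.8%, and 39.2%. More transcripts also bring more starts at which a region can count, and the part of this was not tested.

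The gene types differed. Any open start was found for 54.9% (52.1 to 57.6) of the 1232 genes of type lincRNA and for 24% (22.3 to 25.7) of the 2437 of type processed_transcript, and among genes over 5 kb from coding starts for 35.4% (31.2 to 39.9) and 15.2% (13.5 to 17). Transcript types did not follow gene types. Of 791 genes of type processed_transcript with a lincRNA transcript, 132 were open (16.7%), whereas of 756 genes of type lincRNA with a lincRNA transcript, 366 were (48.4%). The latter also began within 1 kb of a coding start more often (41.9% against 3.41%).

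Most genes had 1 member (417), 131 had 2, 26 had 3, and 9 had 4 or more. *A330023F24Rik*, the host of *Mir29b-2* and *Mir29c*, had 6, the most of any. *Gm16897*, which overlaps it on the other strand, had 5, of which 3 were also counted for *A330023F24Rik*. *Pisd-ps2*, a pseudogene in RefSeq, had 5 as well. At *A330023F24Rik* the regions formed separate groups, with 3 counted for it at the first start (chr1:196802442-196803376) and 3 around a later start (chr1:196843091-196844666). The first region had a CpG observed over expected value of 1.15, and the 3 later ones had 0.12, 0.35, and 0.11.

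**Figure D2:**
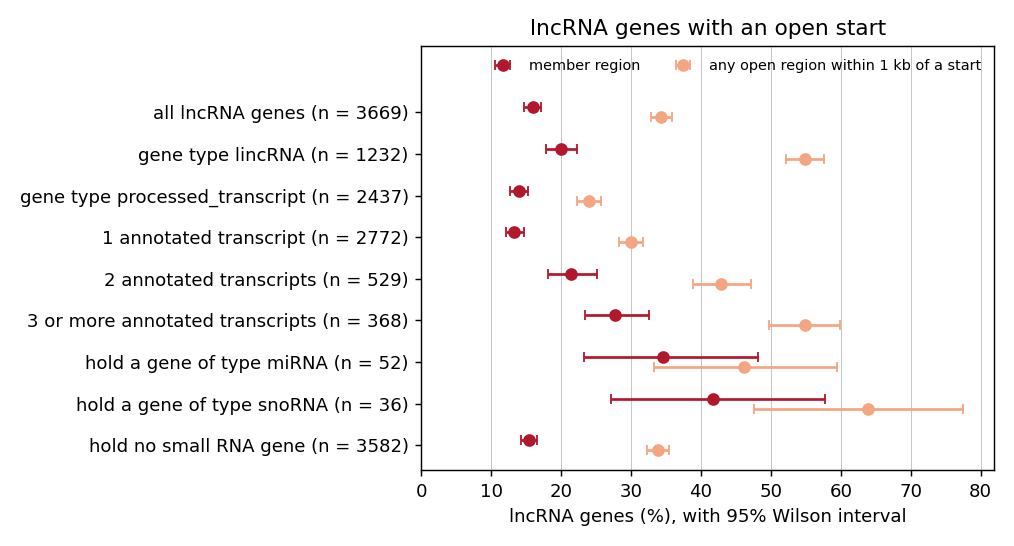
Share of lncRNA genes (horizontal axis, percent) with a member (red) and with any open region within 1 kb of a start (orange), by gene type, number of transcripts, and small RNAs held, with 95% Wilson intervals. Among the groups plotted, genes that hold a snoRNA gene stand highest, at 41.7% and 63.9%, with wide intervals.

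lncRNA genes that hold small RNA genes had open starts more often than the rest. Of 87 such genes, 33 had a member (37.9%, 28.5 to 48.4) and 47 any open region (54.0%, 43.6 to 64.1). Of the 3582 that hold none, 15.4% (14.2 to 16.6) had a member and 33.9% (32.3 to 35.4) any open region. The same held over 5 kb from coding starts, where 28 of 59 holders (47.5%, 35.3 to 60.0) and 18.9% (17.2 to 20.6) of the others had a member. Of 36 holders of snoRNA genes, 23 had an open start (63.9%), as did 24 of 52 holders of miRNA genes (46.2%), and the intervals of these shares overlapped.

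6 of the 11 genes that hold 3 or more small RNA genes had a member. *Mir17hg*, which encodes the miR-17-92 cluster of growth-promoting miRNAs, holds 6 miRNA genes and had 1 member, 520 bp upstream of its start. *Snhg12* holds 4 snoRNA genes and had 2 members, at 7 and 325 bp downstream of its nearest start. *1110038B12Rik*, *2410006H16Rik*, and *9430008C03Rik* (*Snhg17*) hold 3 snoRNA genes each and had 2, 1, and 2 members, and *D230004N17Rik* holds 3 miRNA genes and had 1. *Gas5* and *Snhg1*, with 9 and 8 snoRNA genes, had open regions only within 1 kb of coding starts as well. *Rian* (17 small RNA genes), *Mirg* (9), and *Gm13648* (3) had none.

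The miRNA hosts with an open start included those of miRNAs known from blood cells. The mature sequences of the better-known ones are shown from RefSeq (GRCm38.p6), with the seed, bases 2 to 8, in capitals, since the seed sets which messages a miRNA can pair with. These hosts were picked after their state was seen. Of the 52 holders of miRNA genes, 18 had a member. Those not shown include *Dnm3os* (*Mir199a-2* and *Mir214*), *Meg3* (*Mir1906-1* and *Mir770*), and *Ttc28* (*Mir701*). The hosts shown here, each with a member, were *Mir17hg*, *Mir155* (whose miRNA is induced in activated macrophages), *A430104N18Rik* (miR-142, found across blood cells), *A330023F24Rik* (miR-29), *1700016P03Rik* (miR-132 and miR-212), *2210403K04Rik* (miR-22), and *E130102H24Rik* (miR-101a).
miR-17-5p: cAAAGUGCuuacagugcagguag
miR-20a-5p: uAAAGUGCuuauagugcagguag
miR-18a-5p: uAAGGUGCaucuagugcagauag
miR-19a-3p: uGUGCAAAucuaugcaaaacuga
miR-19b-3p: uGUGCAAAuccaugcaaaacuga
miR-92a-3p: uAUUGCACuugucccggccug
miR-155-5p: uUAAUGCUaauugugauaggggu
miR-142a-5p: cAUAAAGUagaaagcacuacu
miR-142a-3p: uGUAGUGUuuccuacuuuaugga
miR-29b-3p: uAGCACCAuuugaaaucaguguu
miR-29c-3p: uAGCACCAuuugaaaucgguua
miR-132-3p: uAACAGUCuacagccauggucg
miR-212-3p: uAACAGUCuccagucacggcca
miR-22-3p: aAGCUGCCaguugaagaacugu
miR-101a-3p: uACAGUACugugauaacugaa
Among these, miR-17-5p and miR-20a-5p shared a seed, as did miR-19a-3p and miR-19b-3p, miR-29b-3p and miR-29c-3p, and miR-132-3p and miR-212-3p.

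Also picked after their state was seen were hosts with no open region within 1 kb of a start. None was found at *Gm13648* or *Gm15884*, which hold the miR-200 family of epithelial cells, at *A930011O12Rik*, which holds *Mir124a-1*, a miRNA gene of neurons, or at *Gm12082*, which holds *Mir216a* and *Mir217*, known from the pancreas. Open starts were not limited to hosts of blood-cell miRNAs, since *Gm20398* (*Mir196a-2* and *Mir615*) and *RP23-329P9.11* (*Mir196b*), hosts of miRNAs of the Hox clusters, had a region shared with a coding start. The separate lncRNA entries named *Mir196a-1*, *Mir196a-2*, *Mir615*, and *Mir10a*, also of the Hox clusters, had none. From *Gm13648*, the seed of miR-200b-3p and miR-429-3p was the same, and that of miR-200a-3p differed.
miR-200a-3p: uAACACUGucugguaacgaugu
miR-200b-3p: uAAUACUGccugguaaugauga
miR-429-3p: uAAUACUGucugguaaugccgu

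Among known lncRNAs grouped by cell type or by kind of lncRNA, the lists ran from all open to none open. Over the 6 lists, 38 of the 62 genes in the annotation had an open start (61.3%, 48.8 to 72.4), against 34.3% of all lncRNA genes, and 27 of them had a member. In the list of snoRNA hosts and housekeeping lncRNAs 20 of 20 were open (83.9 to 100%), and 14 had a member. The macrophage or immune list had 9 of 10 open and 7 with a member, the hepatocyte list 4 of 6 and 2, the mesenchymal or endothelial list 4 of 6 and 3, and the imprinted list 2 of 6 and 2. None of the 16 developmental and neural lncRNAs was open (0 to 19.4%). *H19* and *Meg3* are in 2 lists each. The lists were chosen with earlier results of these data known, and the intervals do not allow for that choice.

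**Figure D3:**
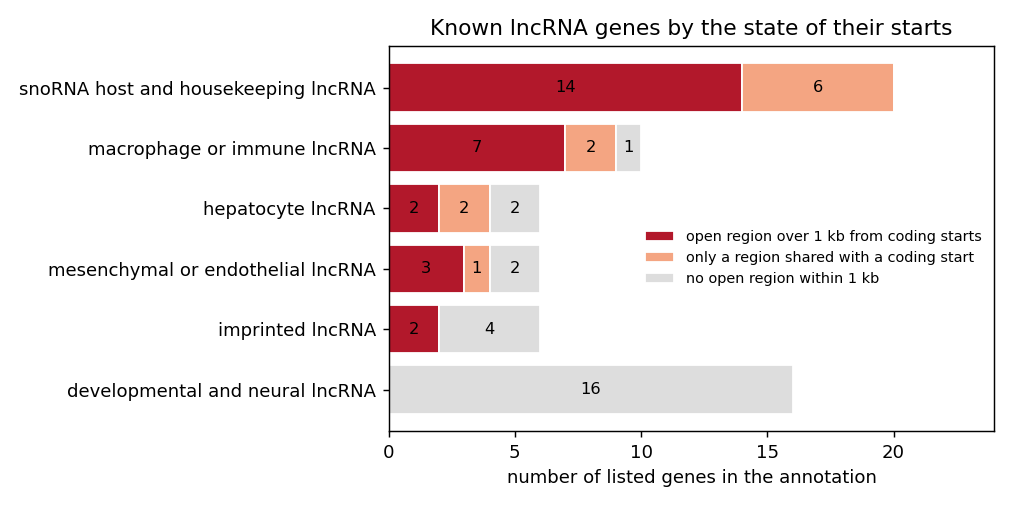
Number of listed lncRNA genes in the annotation (horizontal axis) by list, split into genes with a member (red), genes with only a region shared with a coding start (orange), and genes with no open region within 1 kb (gray). The housekeeping list has 14 and 6 genes of the first kinds and none of the last, and the developmental and neural list has 16 of the last only.

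The housekeeping members include both abundant nuclear lncRNAs. *Malat1*, a component of nuclear speckles, had 1 region of 234 bp with its midpoint 56.5 bp upstream of the start, and *Neat1*, the scaffold of paraspeckles, had 1 of 283 bp (chr19:5845680-5845962) centered 343 bp upstream. *Pvt1*, the neighbor of *Myc*, had a region of 338 bp centered 3.5 bp from its start. *Oip5os1*, which carries a deeply conserved miRNA site, had a region of 222 bp centered 21.5 bp upstream, and *Dancr* one of 247 bp centered 14 bp upstream. *Dleu2* had 4 members, nearest to 3 of its starts. *Snhg4*, *Snhg5*, *Snhg7*, *Snhg12*, *Snhg15*, *Snhg17*, *Snhg20*, and *Epb4.1l4aos* completed the 14, while *Gas5*, *Snhg1*, *Snhg3*, *Snhg9*, *Snhg18*, and *Tug1* shared their region with a coding start.

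The members of the macrophage or immune list, whose genes were not shown to be particular to immune cells, were at *Mirt1* (71 bp upstream), *Gm14005* (88 bp upstream), *AI662270* (68 bp upstream and 274 bp downstream), *Mir17hg*, *Mir22hg* (885 bp upstream), *Gm16197* (137.5 bp upstream and 614 bp downstream), and *A530013C23Rik* (348 bp upstream and 921 bp downstream). *Gm14005* is also known as Morrbid and controls the lifespan of short-lived myeloid cells, and *Gm16197* is *Trp53cor1* (lincRNA-p21), 11880.5 bp from *Cdkn1a*. Of the 10 regions at these 7 genes, 6 had the commonest width of 151 bp and 1 was CpG-rich, as defined below, whereas of the 21 regions at the 14 housekeeping genes 3 had that width and 15 were CpG-rich. *Gm16685* and *Hotairm1*, a lncRNA of the HoxA cluster in myeloid cells, shared a region with a coding start. *Ptgs2os*, antisense to the prostaglandin synthase gene *Ptgs2*, had none. The *Mir155* region was 151 bp wide, 378 bp downstream of the annotated start, and the nearer of the 2 regions at the *Mir142* host was centered 15 bp upstream of it.

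Of the hepatocyte lncRNAs, *4930412L05Rik* (LeXis, an LXR-induced RNA that lowers cholesterol synthesis in liver) had 2 members, of 279 bp at 65 bp downstream and of 235 bp at 405 bp upstream. *Hnf4aos*, antisense to the hepatocyte factor gene *Hnf4a*, had 1 of 208 bp in an *Hnf4a* intron, 838.5 bp downstream of its start. *Gm15441* and *0610005C13Rik* shared a region with a coding start, and *Gm10319* and *H19* had none. Of the mesenchymal or endothelial list, *Dnm3os* (host of miR-199a-2 and miR-214), *Carmn* (a smooth muscle lncRNA), and *Meg3* had a member, *Fendrr* shared one, and *Wt1os* and *Gm12688* had none. Both imprinted members were far from the start, with *Meg3* at 850 bp downstream and *Airn*, which silences *Igf2r* on the paternal allele, at 824 bp upstream, so that none of the 6 imprinted genes was open within 500 bp. *Rian*, *Mirg*, *Nespas*, and *H19* had none.

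The developmental and neural genes without an open start were *Hotair*, *Hottip*, *Evx1os*, *Sox2ot*, *Six3os1*, *Dlx1as*, *Dlx6os1*, *Miat*, *Rmst*, *Hoxa11as*, *Pax6os1*, *Vax2os1*, *Nkx2-2as*, *Lhx1os*, *Mir124a-1hg*, and *Mir9-3hg*. Several of them neighbor homeobox or Sox genes that pattern the embryo.

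Members stood between coding promoters and the remaining open chromatin in base composition. A window reaching 150 bp to each side of the midpoint was called CpG-rich with a GC content of at least 50% and a CpG observed over expected value of at least 0.6, as in unmethylated promoter islands. Of the members 179 were CpG-rich (23.2%, 20.3 to 26.3), against 59.5% (58.8 to 60.3) at coding starts only, 73.7% (71.0 to 76.2) near both kinds of start, and 3.19% (3.03 to 3.35) of the 48090 regions over 1 kb from every annotated start, and none of these intervals overlapped another. Median GC content was 54.5%, 61.1%, 63.8%, and 50.2% in the same order, and the median CpG observed over expected value was 0.38, 0.71, 0.79, and 0.22.

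The CpG-rich share fell with distance from the start, from 32.2% (27.6 to 37.2) of members within 200 bp through 22.8% (17.4 to 29.4) to 9.52% (6.37 to 14) beyond 500 bp. It was 26.7% (22.4 to 31.5) at lincRNA starts, 28.5% (22.1 to 35.8) at processed transcripts, and 11.3% (7.67 to 16.4) at antisense starts. Members in introns of coding genes were CpG-rich in 7.43% (4.55 to 11.9), and members outside coding genes in 29.1% (25.3 to 33.1). The groups overlap, since antisense transcripts mostly start inside coding genes.

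**Figure D4:**
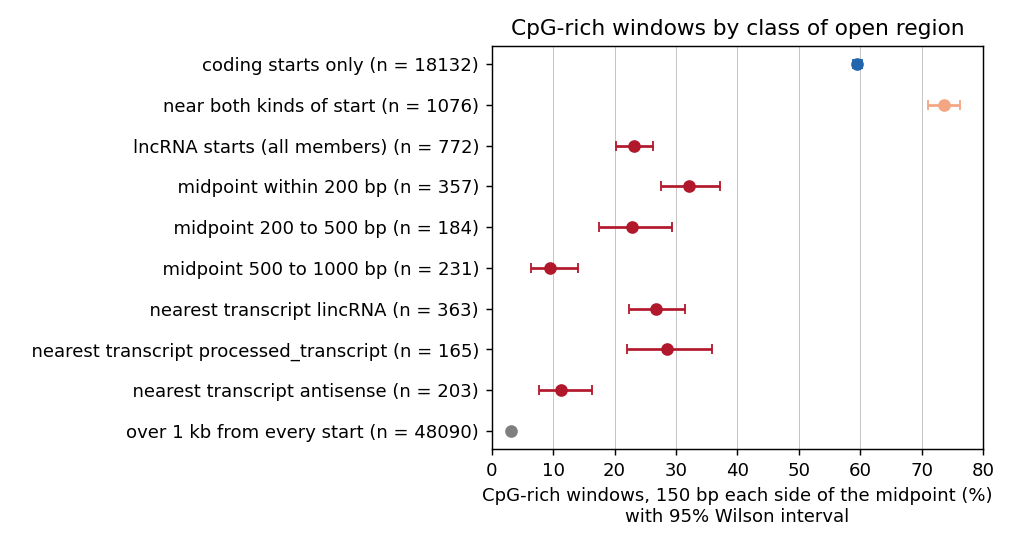
Share of windows (150 bp to each side of the midpoint) that were CpG-rich (horizontal axis, percent) in each class of open region and in groups of members, with 95% Wilson intervals. Members as a whole are at 23.2%, between 59.5% at coding starts and 3.19% over 1 kb from every start.

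Regions at both ends of this range are printed with each CG pair in capitals, again on the strand of the lncRNA in NCBIM37.
*1810010H24Rik* (chr11:106889303-106889597, plus strand, 55 pairs): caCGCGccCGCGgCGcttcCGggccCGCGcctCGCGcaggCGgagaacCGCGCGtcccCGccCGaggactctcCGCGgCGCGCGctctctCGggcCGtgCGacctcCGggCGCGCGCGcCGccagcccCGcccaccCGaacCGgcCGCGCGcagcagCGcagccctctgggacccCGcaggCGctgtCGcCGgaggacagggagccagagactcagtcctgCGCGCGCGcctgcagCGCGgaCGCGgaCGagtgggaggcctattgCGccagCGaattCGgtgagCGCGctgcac
*Snhg12* (chr4:131864505-131864695, plus strand, 16 pairs): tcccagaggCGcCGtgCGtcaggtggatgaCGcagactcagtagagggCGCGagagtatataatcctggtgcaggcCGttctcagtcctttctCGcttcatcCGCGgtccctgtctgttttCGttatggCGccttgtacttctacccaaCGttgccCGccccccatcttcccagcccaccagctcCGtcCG
*Gm16719* (chr5:28382073-28382281, minus strand, 1 pair): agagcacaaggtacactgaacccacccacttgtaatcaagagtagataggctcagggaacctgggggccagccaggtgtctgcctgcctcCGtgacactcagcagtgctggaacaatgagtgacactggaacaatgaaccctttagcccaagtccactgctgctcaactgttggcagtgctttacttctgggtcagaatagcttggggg
*Dnm3os* (chr1:164147719-164147911, plus strand, 2 pairs): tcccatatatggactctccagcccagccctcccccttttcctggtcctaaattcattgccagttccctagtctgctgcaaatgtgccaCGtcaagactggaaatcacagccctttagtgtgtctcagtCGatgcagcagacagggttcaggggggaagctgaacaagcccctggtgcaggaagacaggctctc
*1810010H24Rik* and *Ttc28* had the most CG pairs in the window around the midpoint (55 each), followed by *E130102H24Rik*, the miR-101a host (44), *C330006A16Rik* (42), and 3 regions with 41, at *1810059C17Rik*, *A330023F24Rik*, and *Gm3834*. RefSeq matched *1810010H24Rik*, *Ttc28*, and *C330006A16Rik* to protein-coding genes. Whether their regions are coding promoters was not tested. The *Dnm3os* region, which covers its start at base 131, had a CpG observed over expected value of 0.30 in the window, so an open start was not always CpG-rich.

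Members were narrower than regions at coding starts and near the list as a whole in width. Their median width was 168 bp (quartiles 151 and 214, mean 188 ± 47.3, SD over 772 regions), against 188 bp at coding starts only, 192 bp near both kinds of start, 151 bp over 1 kb from every start, and 160 bp over all regions. The commonest width, 151 bp, was that of 329 members (42.6%, 39.2 to 46.1), 29.5% of regions at coding starts, 53.6% of regions away from starts, and 46.6% of all. It was less common among CpG-rich members (22.3%, 16.9 to 29.0) than among the others (48.7%, 44.7 to 52.8). The 5 widest members were at *Gm17080* (417 bp, chr17:45722309-45722725), *Dleu2* (392 bp, chr14:62267601-62267992), *Gm17351* (381 bp, chr10:66383995-66384375), *Gm9530* (374 bp, chr1:156930575-156930948), and *9330175E14Rik* (355 bp, chr8:96958049-96958403). The deposited list gives no signal, so a width is not a measure of how open a region was.

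Motifs were searched as exact letters on both strands in the same windows, and each share is compared with that of all 68533 regions. The GC box of SP and KLF factors (GGGCGG) was in 31.3% of members (28.2 to 34.7), 55.1% of regions at coding starts, 10.0% of regions away from starts, and 23.1% of all. The ETS site (CCGGAAG) followed the same order with 9.20% (7.36 to 11.4), 13.4%, 3%, and 5.99%. NRF1 (GCGCATGCG) was in 1.68% (0.987 to 2.86), 2.50%, 0.212%, and 0.871%, and YY1 (AAGATGGCG) in 0.777% (0.357 to 1.69), 2.26%, 0.177%, and 0.782%. These are motifs of CpG-rich promoters, and the share of members was between those of the other classes in each. NRF1 and YY1 rested on 13 and 6 members, and the NRF1 interval held the share at coding starts.

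AP-1 and PU.1, motifs of macrophage enhancers, were more frequent at members than at coding starts. AP-1 (TGACTCA or TGAGTCA) was in 8.94% of members (7.12 to 11.2), 4.53% of regions at coding starts, 11.2% of regions away from starts, and 9.30% of all. PU.1 (GAGGAAGT) was in 5.57% (4.16 to 7.42), 3.26%, 6.14%, and 5.31%. In both cases the interval held the share of all regions and left out that of coding starts. Within CpG-poor windows, AP-1 was in 10.3% of 593 members and 10.9% of all such regions, and PU.1 in 5.90% and 6.06%, whereas ETS was in 7.59% and 3.17%, and the GC box in 19.9% and 11.2%.

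**Figure D5:**
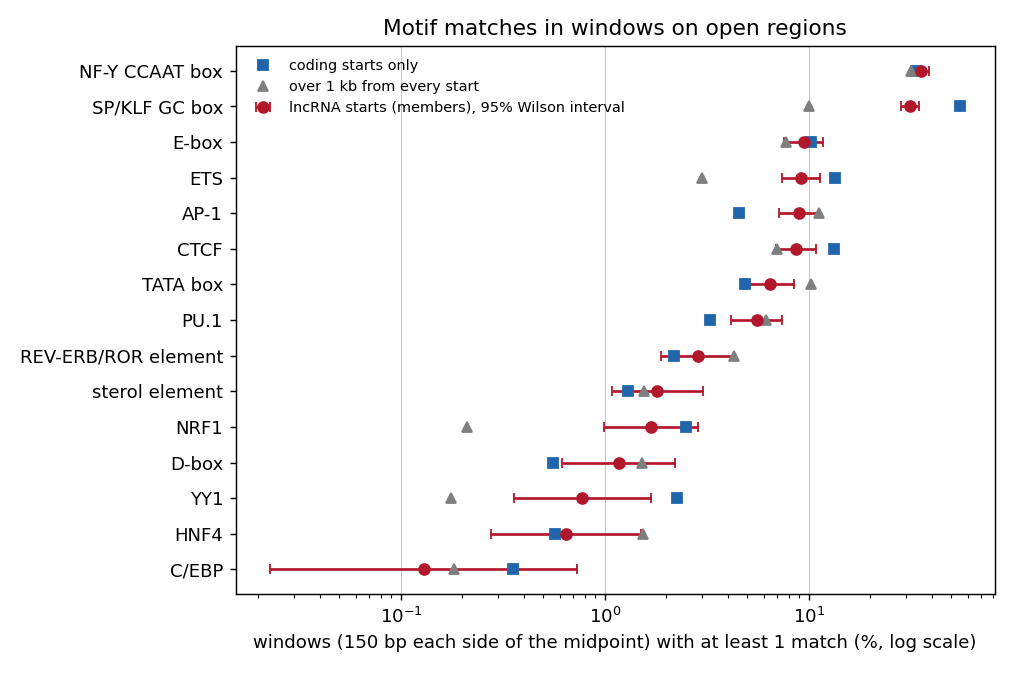
Share of windows (150 bp to each side of the midpoint) with at least 1 match to each motif (horizontal axis, percent, log scale) for members (red, with 95% Wilson intervals), regions at coding starts (blue), and regions over 1 kb from every start (gray). For the GC box and ETS the red points lie between the others, and for AP-1 and PU.1 they lie near the gray ones.

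For the motifs of the clock and of sterol signaling, the interval of the members held the share of all regions. The E-box (CACGTG), bound by CLOCK, BMAL1, and other factors, was in 9.46% of members (7.59 to 11.7) and 8.46% of all regions. The element of REV-ERB and ROR (TAGGTCA) was in 22 members (2.85%, 1.89 to 4.28) and 3.71% of all regions, the sterol element (TCACNCCAC) in 14 (1.81%, 1.08 to 3.02) and 1.48%, and the D-box (TTATGTAA) in 9 (1.17%, 0.615 to 2.20) and 1.24%. The TATA box (TATAAA) was in 6.48% of members (4.95 to 8.44), below the 8.65% of all regions. CCAAT was in 35.4% (32.1 to 38.8) and 32.4%, CTCF (CNAGGNGGC) in 8.68% (6.89 to 10.9) and 8.77%, HNF4 (CAAAGTCCA) in 0.648% (0.277 to 1.51) and 1.25%, and C/EBP (TTGCGCAA) in 1 member (0.130%) and 0.231%. A match of these letters is a description of the sequence and not a site shown to be bound.

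The windows of 12 members held 3 or more different motifs besides the GC box and CCAAT. The windows at *D730003I15Rik* (ETS, AP-1, E-box) and *Gm14005* (ETS, PU.1, AP-1) are 2 of them. The window at *Gm10425*, 11761 bp from the TNF-induced gene *Tnfaip2*, held PU.1, E-box, sterol, and CTCF letters, that at *2210408F21Rik* PU.1, AP-1, and E-box, and that at *Dleu2* (chr14:62301219-62301371) TATA, PU.1, and E-box. The others were at *Gm11201*, *Gm8705*, *1600002D24Rik*, *BC029722*, *1300015D01Rik*, *Gm12862*, and *1600020E01Rik*. The open region itself held 3 or more only at *D730003I15Rik*, *Gm11201*, *1600002D24Rik*, *BC029722*, and *Gm12862*. That at *Gm14005* held ETS alone, and that at *Gm10425* held no motif.

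Most members lay outside coding genes. Of the 772, 516 were outside (66.8%, 63.4 to 70.1), 202 in introns (26.2%), and 54 in exons (6.99%). Of the 202 in introns, the lncRNA ran against the coding gene in 174 (86.1%, 80.7 to 90.2). The share among all annotated lncRNA starts in introns was not counted, so this is not shown to be particular to open starts. Members were in coding genes less often (33.2%, 29.9 to 36.6) than regions away from starts (51.2%, 50.8 to 51.7). The nearest coding start was a median of 15642 bp away (quartiles 5158 and 40944).

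Against that coding start, the lncRNA ran in the same direction in 268 members, away from it (divergent) in 269, and toward it (convergent) in 235. Divergent pairs were 41.1% (31.7 to 51.1) of the 95 members 1 to 2 kb from a coding start, 54.3% (44.2 to 64.0) of the 94 at 2 to 5 kb, 29.6% (24.2 to 35.5) of the 247 at 5 to 20 kb, 32.4% (27.3 to 38.0) of the 287 at 20 to 100 kb, and 26.5% (16.2 to 40.3) of the 49 farther away. The interval at 2 to 5 kb overlapped that at 1 to 2 kb and none of the others. Orientation was counted for members only and not for all lncRNA starts at these distances, so whether open starts differ was not tested. The nearest coding gene was itself open at a start for 76.6% of members (73.4 to 79.4) and for 76.0% of regions away from starts (75.6 to 76.4), and the first interval held the second.

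Members near genes of the clock and of SREBP signaling, the pathways altered in the hepatocytes of these mice, were counted against all coding genes, of which 553 of 21418 (2.58%) were the nearest coding gene of a member. None of the 12 clock genes examined (*Arntl*, *Clock*, *Nr1d1*, *Nr1d2*, *Per1*, *Per2*, *Per3*, *Cry1*, *Cry2*, *Dbp*, *Rora*, and *Nfil3*) was the nearest coding gene of a member, and neither was any of the 11 macrophage or 12 hepatocyte marker genes. Of 7 genes of SREBP signaling, *Insig1*, which holds SCAP and SREBP in the endoplasmic reticulum, was nearest to 1 member, the CpG-poor region printed above at *Gm16719*. It lay 178 bp upstream of the *Gm16719* start and 15775 bp from the *Insig1* start, with the genes running apart. Lists of this size are too short to tell these counts from the share of all coding genes. Found after the values were seen, *Gm16271* in an intron of the endothelial scavenger receptor gene *Stab2* had 2 members (8 and 408 bp upstream of its start), and *Gm11773* had 1 of 346 bp, 6798.5 bp from *Fasn*, the gene of fatty acid synthase.

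Some genes counted as lncRNA by the annotation are listed as protein-coding by RefSeq, which matched 360 of the 583 genes by symbol or unique synonym. Of the 583, 307 were lncRNA there, 31 protein-coding, 19 pseudogenes, and 3 of other types. A synonym can lead to a different gene. *1700064E03Rik*, antisense in an intron of *Kdm6b*, was matched to *Kdm6b* itself and is among the 31. The 31 held 47 members, of which 51.1% (37.2 to 64.7) were CpG-rich. They include several genes of short proteins or peptides, picked here after their values were seen. The regions were centered 9 bp upstream of the start of *Enho*, which encodes the liver peptide adropin, 66.5 bp upstream of *1500011K16Rik* (*Mtln*, a mitochondrial micropeptide), 47 bp downstream of *Gm10664* (*Apela*, a peptide hormone), and 14 bp upstream of *Oaz2* (an inhibitor of polyamine synthesis). Without such genes there were 725 members, of which 21.4% were CpG-rich.

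At the limits of the rule, the members farthest from a lncRNA start were at *0610012D04Rik* (999 bp), *Gm16309* (995.5 bp), and *Gt(ROSA)26Sor* (995.5 bp), and the nearest regions left out were at *Gm5544* (1001.5 bp) and *4932441J04Rik* (1002.5 bp). On the coding side, the closest members were at *Gm15541* (1004.5 bp from a coding start) and *Gm16869* (1006.5 bp), and the nearest regions left out were at *RP24-337A16.1* (997 bp) and *Gm4485* (995.5 bp).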

How the data were processed

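Open chromatin of LMs was measured by fast-ATAC-Seq in 18 libraries. The authors ran the Kundaje laboratory pipeline, trimmed adapters, aligned reads to mm9 with Bowtie, merged biological replicates, and called peaks. The caller, its threshold, and how peaks were joined are not given in the sources used here. The deposited file holds positions only, with no count, score, or signal per library, so it carries no depth. Starts are printed from 1.

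Regions on chromosomes 1 to 19 were compared with GENCODE vM1 of NCBIM37, the assembly behind mm9. Every transcript start of a gene of type lincRNA or processed_transcript counted as a lncRNA start, and no gene has the type antisense there, so antisense starts were taken from transcript types. GC content, CpG pairs, and 15 motifs were read in windows reaching 150 bp to each side of the midpoint. RefSeq gave gene kinds by symbol or unique synonym and the mature miRNAs. Shares carry 95% Wilson intervals, and no test was made, since regions and genes are not replicates. The rule, the joining of regions, the motif search, the Wilson interval, and the count of repeated 31-base sequences were tested against known answers. The other steps were not tested in this way. Python 3.11.15, NumPy 2.4.6, and matplotlib 3.10.9 were used.

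Named are listed lncRNA genes, the 5 widest members, the 3 genes with the most members, hosts with a member and 3 or more small RNA genes, the 5 members with the most CpG (with ties) and those with 3 or more motifs besides the GC box and CCAAT, members nearest to clock, SREBP, macrophage, or hepatocyte genes, and those at the limits of the rule. Others are said to be picked later. Members and lists were chosen with earlier results of these data known. Listed symbols that led to the same gene were counted once.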

Additional observations from a re-analysis of the deposited data

How the results depend on the processing

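No paired analysis was possible because the deposited list has no values per library. Of 44 other settings of the main results, 27 stayed within 1.5 times the count or within the interval of the value. Both counts include the settings chosen after seeing the data that are given last below, all of which stayed. Those that moved past it are as follows. Members numbered 1170 with starts within 2 kb and 257 with regions of at least 200 bp, and the share of lncRNA genes with a member was 12.5% within 500 bp, 22.3% within 2 kb, 11.6% over 5 kb from coding starts, 17.8% with the 5′ end of each gene only, and 6.60% with regions of at least 200 bp. The share of members at lincRNA transcripts was 51.8% over 5 kb from coding starts. CpG-rich members were 29.0% within 500 bp, 28.8% with 5′ ends only, 31.9% with regions of at least 200 bp, and 26.6% when the region itself replaced the window. The GC box was in 35.0% of members with 5′ ends only and in 23.1% of the regions themselves. Members in coding genes were 24.7% over 5 kb from coding starts and 45% with 5′ ends only. Listed lncRNA genes with an open start were 38.7% with regions of at least 200 bp, where the housekeeping list had 15 of 20 open and the developmental and neural list 0 of 16, as before. Of 84 settings of the other results, 63 stayed within the interval. Chosen after seeing the data, 762 members were left when the 31 bases at the midpoint had to occur once in the genome, and 725 without genes that RefSeq lists as protein-coding, with 23.1% and 21.4% CpG-rich, both within the interval of the main share.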

Other observations

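Few members lay in repeated sequence. The 31 bases around the midpoint occurred more than once in the NCBIM37 genome, on either strand, for 10 of 772 members (1.30%, 95% Wilson interval 0.705 to 2.37), against 0.535% (0.439 to 0.652) of regions at coding starts and 0.873% (0.794 to 0.961) of regions over 1 kb from every start. They occurred 729 times for the member at *Gm13201*, 75 times for that at *Gm16869*, and 10 times for that at *Gm17712*. The other 7, among them the regions at *C920006O11Rik* (5 times) and *Pisd-ps1* (2 times), occurred at most 5 times. Reads from such regions cannot be placed with certainty.

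Members were most numerous on the chromosomes with the most annotated lncRNA genes, but their number per lncRNA gene varied between chromosomes. Chromosomes 2, 4, and 11 held 118, 91, and 95 members, and they also held 588, 453, and 483 of the annotated lncRNA genes, so that each had about the same number of members per 100 lncRNA genes (20.1, 20.1, and 19.7). Chromosomes 17, 16, and 19 had the most by that measure (35.8, 31.8, and 29.9), and chromosome 18 the fewest (13.8). Chromosome 17 held 53 members at 148 lncRNA genes, and chromosome 16 held 34 at 107.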
